A study of Sus scrofa with 24 samples.

Results

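Phosphoinositide 3-kinases of class I are lipid kinases made of a regulatory and a catalytic subunit. The regulatory subunits PIK3R1, PIK3R2 and PIK3R3 stabilise the catalytic subunits PIK3CA, PIK3CB and PIK3CD, hold their activity down, and release it when they dock on activated receptors or adaptors. The product, a phosphorylated membrane lipid, brings the kinases AKT1 and AKT2 to the membrane, which in embryos carries signals of insulin, insulin-like growth factors and other growth factors to growth, survival and glucose uptake. PIK3CG works with regulatory subunits of its own and answers to G protein-coupled receptors, and PIK3CD and PIK3CG are best known from leukocytes.

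The genes examined were these 9, taken as probes whose array annotation gives 1 of the 9 symbols. The family was selected on a measured value, because PIK3R1 had the smallest p of all genes in female IS21FE pools. Ratios of the members in that group, and differences that contain that group, are therefore given as a description without a test. Of the 9 genes, 6 had a probe, with 11 probes in all among 18109 probes that carry a gene symbol and 43749 probes on the array. PIK3R1 (EMPV1_12301), PIK3R2 (EMPV1_15105), PIK3CD (EMPV1_15533) and AKT2 (EMPV1_04385) had 1 probe each, PIK3CG had 2 and PIK3CB had 5. PIK3R3, PIK3CA and AKT1 had no probe under their symbol and were not analysed here.

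RNA came from pools of 3 pig embryos of a single sex, taken at day 30 of gestation from primiparous sows, that is, sows after their first litter. The treated sows had been brought into oestrus while lactating and were mated under a strategy called IS21FE (3 sows) or IS21SE (3 sows) in the labels, which do not spell out the letters, and the control sows (6 sows) are called C28. Each array set a treated pool against a control pool of the same sex, which gave female and male IS21FE groups and female and male IS21SE groups of 3 replicates each, and each replicate was hybridised on 2 arrays with the dyes exchanged. The labels count 24 pools, which is enough for every replicate to have had its own control pool.

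The deposited values are log2 ratios of both dyes. Where the control RNA was in Cy5, the ratio was multiplied by -1, so that, where columns hold Cy5 over Cy3, positive values stand for more RNA in treated than in control pools. No source used here states the column order, and values are called positive or negative for that reason. Ratios show no expression level, so whether the defining markers of a cell type are present in these embryos could not be checked, and the whole embryo holds many cell types. Fewer cells of a type and less RNA per cell cannot be told apart in such pools.

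A few facts of the arrays bear on the members. The arrays gave values for 31722 to 39435 probes, and precision is limited by how few arrays there are. The spread of all probes was narrower on female arrays (SD 0.62 to 0.889) than on male arrays (SD 0.937 to 1.332). After the turn, the 2 arrays of a replicate had the same sign for 46.5% of probe pairs in female pools and 53.5% in male pools. In female pools the arrays of a replicate thus disagreed in sign more often than they agreed after the turn. The cause of this was not tested, and these values do not settle the direction of the columns there. Every female sign below uses the turn unless stated. A probe was measured on a median of 23 of the 24 arrays, and the members ranged from 14 arrays for AKT2 and 16 for PIK3CD to 24 for 3 probes of PIK3CB.

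PIK3R1, the most widely expressed regulatory subunit, had a negative ratio in every female pool and a positive one in every male pool when the arrays of a replicate were averaged. In female IS21FE pools the arrays with treated RNA in Cy5 read -0.87, -0.84 and -1.03, and the arrays with control RNA in Cy5 read -0.59 and -0.72 in replicates 2 and 3, with no value in replicate 1. The arrays of male IS21FE pools read 0.41, 0.29 and 0.10 with treated RNA in Cy5, and 0.54, -0.05 and -0.02 with control RNA in Cy5. The female values lay together well below 0 under both dye orders, whereas 2 of the 6 male arrays were just below 0, and the sexes did not overlap.

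PIK3R1 in female IS21SE pools read -0.30, -0.32 and -0.04 with treated RNA in Cy5, and -0.13, -0.17 and -0.24 with control RNA in Cy5. Male IS21SE pools read 0.47, -0.08 and 0.15 with treated RNA in Cy5, and 0.17, 0.39 and -0.08 with control RNA in Cy5. All 6 female arrays were below 0 but closer to it than under IS21FE, and 4 of 6 male arrays were above it. In all, 11 of 11 female arrays with a value were negative and 8 of 12 male arrays were positive, and the 2 dye orders had the same sign in 5 of 5 female pairs and 2 of 6 male pairs.

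**Figure D1:**
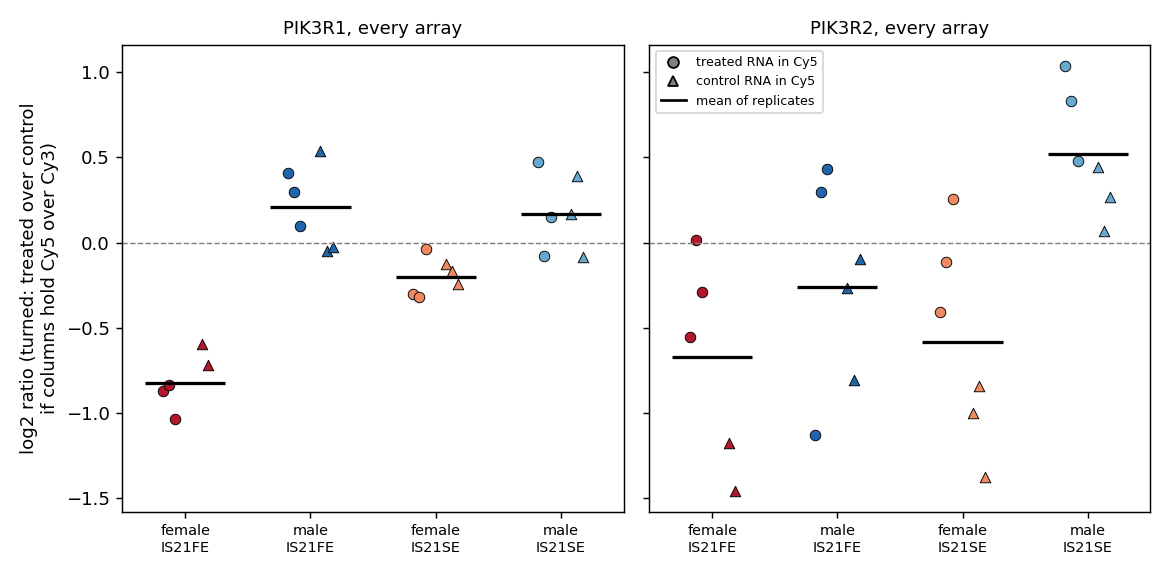
Log2 ratio of PIK3R1 (left) and PIK3R2 (right) on every array, by group. Circles are arrays with treated RNA in Cy5, triangles arrays with control RNA in Cy5, and bars the mean of the replicates. All 11 female values of PIK3R1 lie below 0, and the PIK3R2 triangles of female pools lie below the circles.

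Averaged per replicate, PIK3R1 had -0.82 ± 0.0912 in female IS21FE pools and 0.21 ± 0.231 in male IS21FE pools (SD, n = 3 each), a female minus male difference of -1.03 that is a description, since the gene was chosen on the female value. It had -0.20 ± 0.0525 in female IS21SE pools and 0.17 ± 0.144 in male IS21SE pools (SD, n = 3 each). The IS21SE ratios took no part in the choice of the gene, but the spread of these replicates did, since the limma fit shares its estimate of spread among the groups. Intervals and p-values of PIK3R1 outside female IS21FE pools are therefore not independent of that choice. The limma fit put the female IS21SE ratio at -0.20 with a 95% interval from -0.44 to 0.04 (adjusted p = 0.999). The male IS21SE ratio was 0.17 with an interval from -0.07 to 0.41 (limma, adjusted p = 0.597), and the male IS21FE ratio was 0.21 with an interval from -0.03 to 0.45 (limma, adjusted p = 0.719). The female minus male difference under IS21SE was -0.37 with an interval from -0.71 to -0.03, an unadjusted p of 0.0347 and an adjusted p of 0.66 (limma). Without the turn of the arrays with control RNA in Cy5 it was -0.03, and the difference under IS21FE was -0.44. The size of both thus rests on the turn. The -0.44 includes female IS21FE replicate 1, whose only array, with treated RNA in Cy5, read -0.87 and is left as it is by the turn. None of these comparisons passed the threshold of 0.05 after adjustment, although all 3 female IS21SE replicates lay below all 3 male ones. Over both sexes the IS21SE ratio of PIK3R1 was -0.01, with the sexes on opposite sides of 0.

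PIK3R2, the second regulatory subunit, was negative in every female replicate of both strategies and positive in every male IS21SE replicate. The female IS21SE arrays with treated RNA in Cy5 read -0.41, -0.12 and 0.26, and those with control RNA in Cy5 read -0.997, -0.84 and -1.37. Male IS21SE arrays read 1.04, 0.83 and 0.48 with treated RNA in Cy5, and 0.44, 0.07 and 0.27 with control RNA in Cy5. In both sexes the arrays with control RNA in Cy5 were lower, and the size of the ratio therefore depended on the dye order.

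Averaged per replicate, PIK3R2 had -0.58 ± 0.113 in female IS21SE pools and 0.52 ± 0.193 in male IS21SE pools (SD, n = 3 each). The female ratio of -0.58 had a 95% interval from -0.93 to -0.23, an unadjusted p of 0.00419 and an adjusted p of 0.999 (limma). The male ratio of 0.52 had an interval from 0.17 to 0.87, an unadjusted p of 0.00774 and an adjusted p of 0.315 (limma). The female minus male difference was -1.10 (SE 0.219) with an interval from -1.59 to -0.61. This was the sixth smallest p of 11339 genes tested for that difference, with an unadjusted p of 0.00058, but it did not pass adjustment over all genes (limma, adjusted p = 0.56). On arrays with treated RNA in Cy5 alone the difference was -0.87, and on arrays with control RNA in Cy5 alone it was -1.33. It was 0.23, with the sign turned, when the arrays were not multiplied by -1, so the PIK3R2 direction in female pools rests on the dye order of the columns. Over both sexes the IS21SE ratio of PIK3R2 was -0.03.

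Among the markers of other cell types, TIE1, a receptor of endothelial cells singled out after its values were seen, ran the same way under IS21SE. It had -0.49, -1.66 and -0.70 in female pools and 0.60, 0.75 and 0.35 in male pools, a female minus male difference of -1.51 (unadjusted p = 0.00168, limma adjusted p = 0.56). Over all 4 measured endothelial markers that difference had a median of -0.081 and ran from -1.51 to 0.65. The part of endothelial cells in the PIK3R1 and PIK3R2 ratios was not tested.

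Under IS21FE the pattern of PIK3R2 was less even. Female pools read -0.55, 0.01 and -0.29 with treated RNA in Cy5, and -1.18 and -1.45 with control RNA in Cy5 in replicates 2 and 3, against -1.13, 0.30 and 0.43 and then -0.27, -0.81 and -0.10 in male pools. Per replicate this gave -0.67 ± 0.175 in female pools, with replicate 1 on a single array, and -0.26 ± 0.433 in male pools (SD, n = 3 each). The sexes overlapped here, and the male ratio had a 95% interval from -0.61 to 0.08 (limma, adjusted p = 0.786). PIK3R1 and PIK3R2 were both negative in 3 of 3 female IS21FE replicates, the group by which PIK3R1 was chosen, as 18% of all measured genes were.

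**Figure D2:**
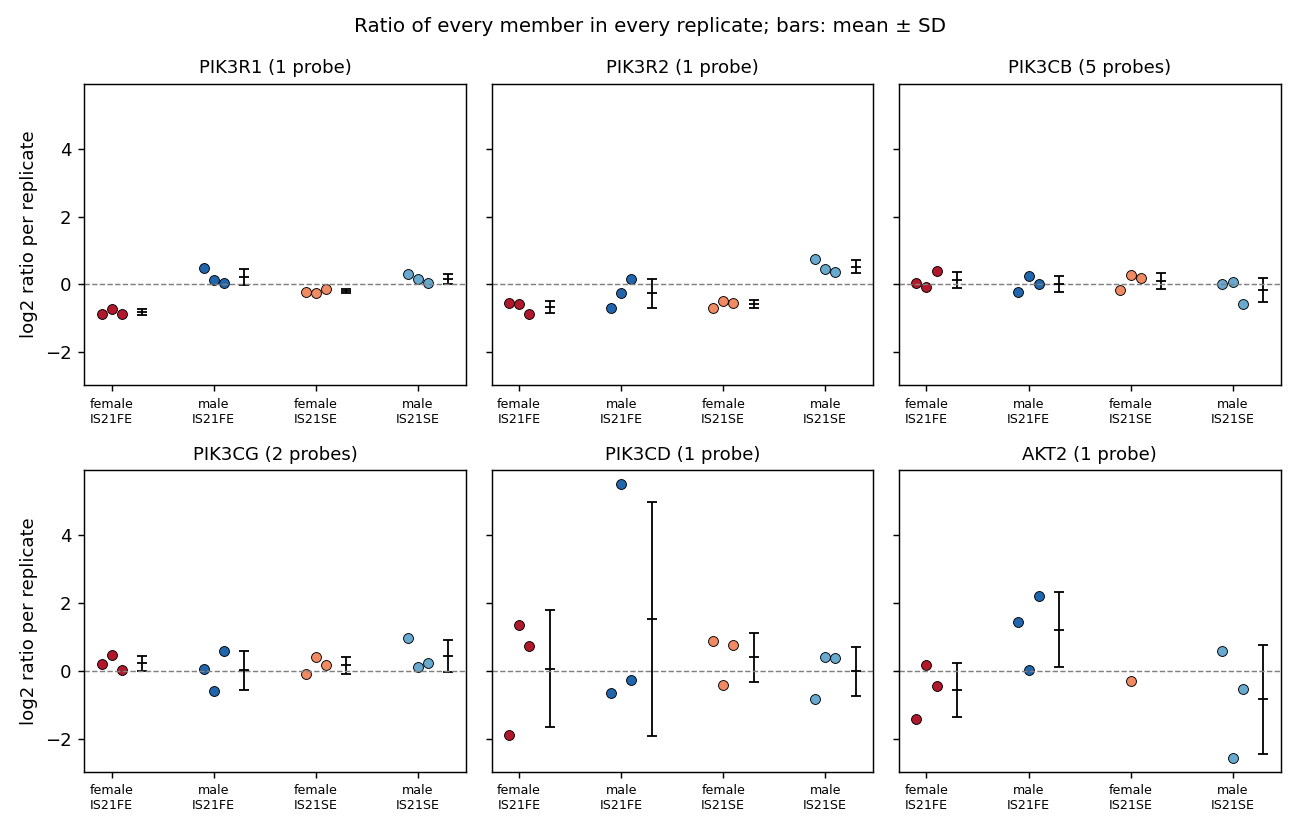
Log2 ratio of the 6 measured genes in every replicate, by group, with the mean and SD of the replicates beside the points. PIK3R1 and PIK3R2 stay within 1 of 0 in all replicates, whereas PIK3CD reaches 5.51 and AKT2 reaches -2.56.

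The catalytic subunits gave ratios on both sides of 0 in most groups. PIK3CB, a widely expressed catalytic subunit, had 0.05, -0.07 and 0.39 in female IS21FE pools and -0.22, 0.24 and 0.00 in male IS21FE pools, averaged over its 5 probes. It had -0.17, 0.28 and 0.20 in female IS21SE pools and 0.01, 0.06 and -0.57 in male IS21SE pools. The groups overlapped, and no group had all replicates on 1 side of 0. The 95% interval of its ratio ran from -0.35 to 0.36 in male IS21FE pools (limma, adjusted p = 1), from -0.26 to 0.46 in female IS21SE pools (adjusted p = 0.999) and from -0.53 to 0.19 in male IS21SE pools (adjusted p = 0.736). The female minus male difference under IS21SE was 0.27 with an interval from -0.24 to 0.77 (limma, adjusted p = 0.842).

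The 5 probes of PIK3CB disagreed with each other, so the mean over probes hides unlike readings. EMPV1_38410 was negative in all groups, with -0.34 ± 0.472 in female IS21FE pools, -0.86 ± 0.414 in male IS21FE pools and -0.60 ± 0.166 in female IS21SE pools (SD, n = 3 each), and -0.55 in the only measured male IS21SE replicate. EMPV1_38920 was positive in 3 groups, with 0.38 ± 0.836 in female IS21FE pools, 0.46 ± 0.603 in male IS21FE pools and 1.17 ± 0.547 in female IS21SE pools, but -0.08 ± 0.306 in male IS21SE pools (SD, n = 3 each). When limma was fitted to all probes, EMPV1_38410 in male IS21FE pools had an adjusted p of 0.314, and EMPV1_38920 in female IS21SE pools an adjusted p of 1. The other 3 probes had group means between -0.20 and 0.54. The annotation does not say which transcripts of PIK3CB the probes read, and probe sequences were not used here.

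PIK3CG, the catalytic subunit that answers to G protein-coupled receptors, had 0.20, 0.47 and 0.04 in female IS21FE pools and 0.06, -0.57 and 0.59 in male IS21FE pools. It had -0.07, 0.42 and 0.18 in female IS21SE pools and 0.99, 0.13 and 0.24 in male IS21SE pools. All 3 male IS21SE replicates were positive, with a ratio of 0.45 and a 95% interval from -0.05 to 0.96 (limma, adjusted p = 0.49), and replicate 1 was the highest. That value came from probe EMPV1_00461, which read 1.70 and 3.48 on the 2 arrays of that replicate, while EMPV1_27221 read -0.30 and -0.93 there. The 2 probes had opposite signs in the mean of every group, for example 0.95 ± 1.43 and -0.04 ± 0.497 in male IS21SE pools (SD, n = 3 each), so no direction can be given for PIK3CG.

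**Figure D3:**
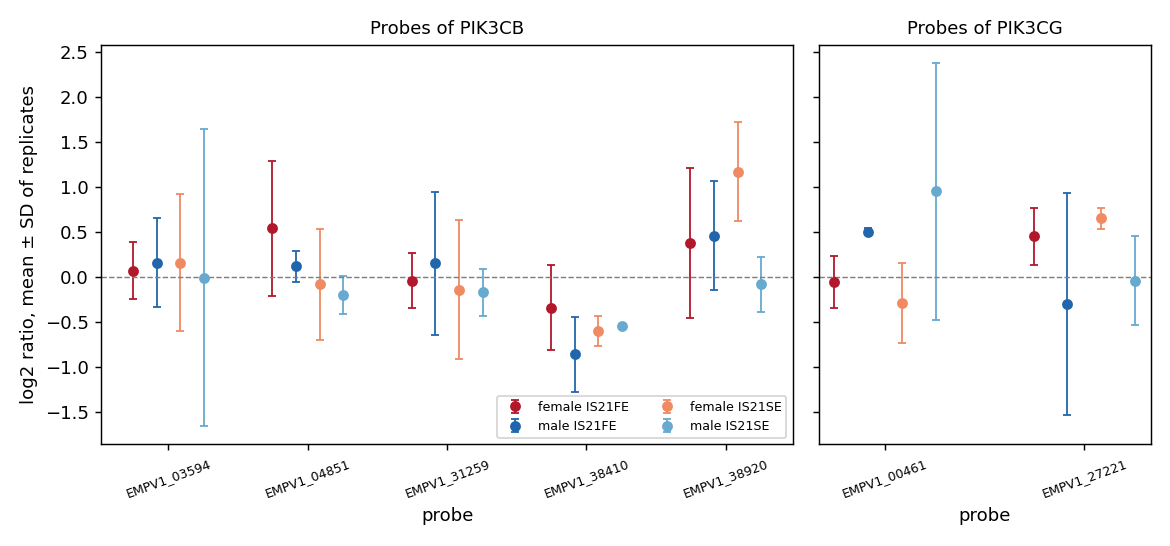
Log2 ratio of the 5 probes of PIK3CB (left) and the 2 probes of PIK3CG (right), as the mean of the replicates with their SD in each group. Points without bars rest on a single replicate. EMPV1_38410 lies below 0 in all 4 groups, EMPV1_38920 reaches 1.17 in female IS21SE pools, and the PIK3CG probes lie on opposite sides of 0.

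PIK3CD, a catalytic subunit of leukocytes, was measured on 16 of 24 arrays and scattered most. It had -1.88, 1.36 and 0.74 in female IS21FE pools and -0.65, 5.51 and -0.25 in male IS21FE pools, where each replicate rests on a single array with treated RNA in Cy5. Single arrays also stand behind replicates 2 and 3 of female IS21FE pools, replicate 1 of female IS21SE pools and replicates 2 and 3 of male IS21SE pools. PIK3CD had 0.90, -0.42 and 0.76 in female IS21SE pools and -0.83, 0.42 and 0.39 in male IS21SE pools. The male IS21FE mean of 1.54 had a 95% interval from -0.81 to 3.89 (limma, adjusted p = 0.827) and was -0.45 without replicate 2. The intervals under IS21SE ran from -1.94 to 2.76 in female and from -2.36 to 2.34 in male pools, too wide to bear on differences of the size seen in the regulatory subunits.

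Of 12 leukocyte markers listed, 9 had a probe. Their median ratio was 0.083 in female IS21FE pools (range -0.59 to 0.24), -0.080 in male IS21FE pools (-1.44 to 0.18), 0.042 in female IS21SE pools (-0.51 to 0.50) and 0.018 in male IS21SE pools (-0.35 to 1.51). These medians stood close to 0 in each group, and none of the 9 passed an adjusted p of 0.05. The part of leukocyte number in the PIK3CD and PIK3CG ratios was not tested.

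AKT2, a kinase recruited by the lipid product and known for its role in insulin-dependent glucose uptake, was measured on 14 of 24 arrays. It had -1.40, 0.17 and -0.44 in female IS21FE pools and 1.44, 0.03 and 2.21 in male IS21FE pools. It had -0.30 in the only measured female IS21SE replicate and 0.59, -2.56 and -0.52 in male IS21SE pools. All 3 male IS21FE replicates were positive, though replicates 1 and 3 rest on a single array with control RNA in Cy5, and the arrays of replicate 2 read -1.09 and 1.15. The male IS21FE ratio was 1.22 ± 1.11 (SD, n = 3) with a 95% interval from -0.23 to 2.68 (limma, adjusted p = 0.739), and was -1.59 without the turn, since most of its arrays have control RNA in Cy5. The male IS21SE ratio was -0.83 ± 1.60 (SD, n = 3) with an interval from -2.28 to 0.62 (limma, adjusted p = 0.669). No test was possible in female IS21SE pools under the minimum of 2 replicates.

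The members called are counted here beside all genes. At an adjusted p under 0.05, limma called 0.0263% of genes in male IS21FE pools (GAS8 and 2 loci without a gene name) and 0% in female IS21SE pools, in male IS21SE pools, in the female minus male difference under IS21SE and in the mean of both sexes under IS21SE, and no member was among them. At an unadjusted p under 0.05, 0 of 6 members were called in male IS21FE pools, where 7.57% of all genes were, and 1 of 5 in female IS21SE pools, where 4.06% were. The count was 1 of 6 members in male IS21SE pools, against 11.1% of all genes. PIK3R2 was the member called in both groups. In the female minus male difference under IS21SE it was 2 of 5, PIK3R1 and PIK3R2, against 7.18% of all genes, and in the mean of both sexes under IS21SE it was 0 of 5, against 7.69%.

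Signs and overlaps were counted in the same way. All 3 female IS21SE replicates were negative for PIK3R1 and PIK3R2 and for 11.3% of all genes. All 3 male IS21FE replicates were positive for PIK3R1 and AKT2 and for 9.81% of all genes, and all 3 male IS21SE replicates for PIK3R1, PIK3R2 and PIK3CG and for 17.5%. All female replicates lay below all male ones for PIK3R1 and PIK3R2 under IS21SE, as for 6.42% of all genes, and for PIK3R1 under IS21FE, as for 4.84%. Over both strategies, 0.242% of all genes had 6 female replicates below all 6 male ones, PIK3R1 among them, and 3.74% had 6 negative female replicates, PIK3R1 and PIK3R2 among them. The last counts and the IS21FE count include the values on which PIK3R1 was chosen. The median over the measured members was -0.241 in female IS21FE pools, 0.119 in male IS21FE pools, 0.102 in female IS21SE pools and 0.082 in male IS21SE pools, beside medians of 0.002, -0.015, 0.014 and -0.009 over all genes tested.

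The mean ratio of the 2 regulatory subunits was set against that of the 3 catalytic subunits in each replicate. The difference was -0.17, -1.24 and -1.26 in female IS21FE pools, and in male IS21FE pools it was 0.16, -1.79 and -0.01. In female IS21SE pools it was -0.68, -0.45 and -0.73, and in male IS21SE pools 0.47, 0.10 and 0.18. The regulatory subunits thus stood below the catalytic ones in all 6 female replicates and above them in all 3 male IS21SE replicates, while male IS21FE pools were mixed.

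In female IS21FE pools the regulatory mean was -0.74 ± 0.116 and the catalytic mean 0.14 ± 0.605, a difference of -0.89 ± 0.624 (SD, n = 3). In male IS21FE pools they were -0.03 ± 0.113 and 0.52 ± 1.06, a difference of -0.55 ± 1.08 (SD, n = 3), which was -0.04 without PIK3CD. In female IS21SE pools they were -0.39 ± 0.0601 and 0.23 ± 0.144, a difference of -0.62 ± 0.146 (SD, n = 3). They were 0.35 ± 0.167 and 0.09 ± 0.0973 in male IS21SE pools, a difference of 0.25 ± 0.194 (SD, n = 3). The regulatory means varied little among the replicates of a group, whereas the catalytic means of IS21FE pools had SDs of 0.605 and 1.06. Those catalytic means include PIK3CD, with SDs of 1.72 in female and 3.45 in male IS21FE pools. In male IS21FE pools the single subunits varied more than their mean, with SDs of 0.231 for PIK3R1 and 0.433 for PIK3R2. In male IS21SE pools the catalytic SD of 0.0973 was below the regulatory SD of 0.167. The family was chosen on the smallest p of a regulatory subunit, and a small p favours a small spread. These differences and the contrast of spreads therefore carry no test and describe no property of the 2 kinds of subunit. Without the turn of the arrays with control RNA in Cy5 the female differences were 0.23 under IS21FE and 0.22 under IS21SE, of the opposite sign.

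**Figure D4:**
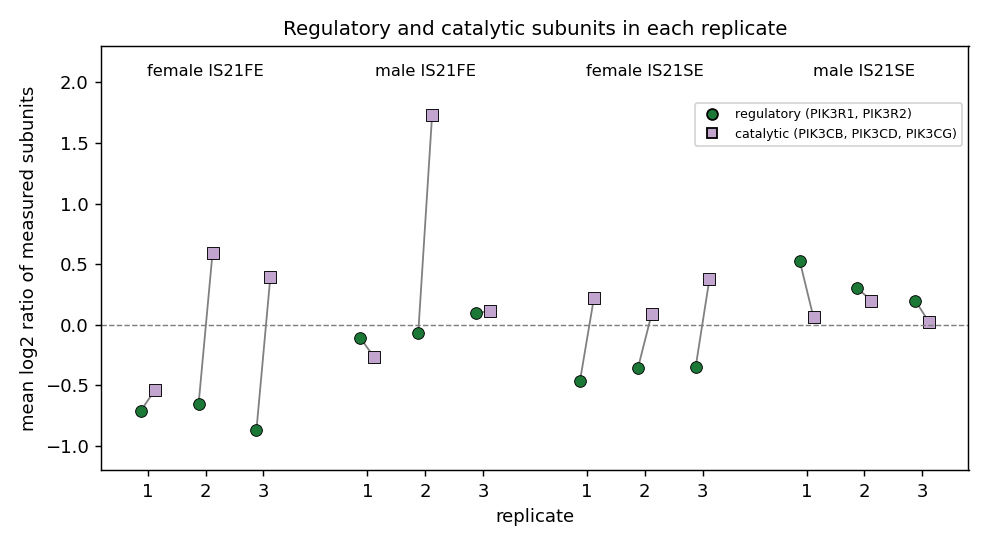
Mean log2 ratio of the regulatory subunits (circles) and the catalytic subunits (squares) in each of the 12 replicates, joined by a line. The circles lie below the squares in all 6 female replicates and above them in all 3 male IS21SE replicates. The highest square, in male IS21FE replicate 2, holds the PIK3CD value of 5.51.

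Of 67 other genes of the pathway (further subunits, receptors and adaptors, phosphatases, kinases and targets), 53 had a probe, and 0 passed an adjusted p of 0.05 in any group. At an unadjusted p under 0.05, 2 were negative and 2 positive of 50 tested in male IS21FE pools, 1 and 3 of 51 in female IS21SE pools, and 3 and 5 of 51 in male IS21SE pools. Both directions together came to 8% in male IS21FE, 7.84% in female IS21SE and 15.7% in male IS21SE pools, beside 7.57%, 4.06% and 11.1% of all genes. The medians of the list were -0.035 in male IS21FE pools, 0.020 in female IS21SE pools and -0.058 in male IS21SE pools, beside -0.015, 0.014 and -0.009 over all genes. Female IS21FE pools had 31 negative and 21 positive of 52, with a median of -0.025.

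In male IS21SE pools the lowest p of the list belonged to PIK3IP1, an inhibitor that binds the catalytic subunit, with -4.47 and -4.96 in the 2 measured replicates. Both values came from single arrays with treated RNA in Cy5, with no dye-swap array to set beside them (limma, adjusted p = 0.205). PIK3C2B, a class II kinase, had 1.07 and 1.38 there on arrays with control RNA in Cy5 alone (limma, adjusted p = 0.315). GSK3A, a kinase that AKT inhibits, had 0.68, 0.51 and 0.39 (limma, adjusted p = 0.318), and PDGFRB, a receptor that recruits regulatory subunits, had 0.54, 0.80 and 0.63 (limma, adjusted p = 0.373). The dye orders of PDGFRB disagreed in sign in 2 of these replicates, with -0.06 and 1.14 in replicate 1 and 1.40 and -0.15 in replicate 3. GSK3A and PDGFRB were positive in all 3 male IS21SE replicates, like 17.5% of all genes.

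In female IS21SE pools PHLPP1, a phosphatase that acts on AKT, had 2.62 and 2.09 in 2 measured replicates. The second value is the mean of 5.46 with treated RNA in Cy5 and -1.28 with control RNA in Cy5, and without the array at 5.46 the group mean was 0.67 in place of 2.36. RICTOR, the defining subunit of the mTOR complex that phosphorylates AKT, had 0.97, 0.66 and 0.48. PHLPP2, a relative of PHLPP1, had 0.92 ± 0.483 and CDKN1A, a cell cycle inhibitor, had -0.57 ± 0.578 (SD, n = 3 each). All 4 had an adjusted p of 0.999 (limma). For CDKN1A, 1 of its 2 probes read 0, 0.27 and 0.34 with treated RNA in Cy5, and -0.61, -0.56 and -0.87 with control RNA in Cy5. Its other probe had a single array in replicate 1, which read -2.15. In male IS21FE pools PIK3C2G, a class II kinase, had -0.54, -1.85 and -1.15 on arrays with treated RNA in Cy5 alone (limma, adjusted p = 0.436). PIK3AP1, an adaptor of B cells and other leukocytes, had 1.39, 0.07 and 0.79 (limma, adjusted p = 0.45). The dye orders of its probe EMPV1_19264 disagreed in sign, with 1.72 and -1.05 in replicate 2 and 1.40 and -0.03 in replicate 3. Its probe EMPV1_13774 read -0.78 and 2.59 in replicate 3. PIK3C2B had 1.02 ± 1.07 (SD, n = 2; limma, adjusted p = 0.52). Its dye orders disagreed in sign in both replicates, with 1.14 and -0.61 in replicate 2 and -0.27 and 3.83 in replicate 3. TBC1D4, a target of AKT in glucose uptake, had -0.52 ± 0.613 (SD, n = 3; limma, adjusted p = 0.644), or -0.21 without a single array of replicate 3 that read -4.11 for 1 of its 2 probes. In female IS21FE pools, given without a test, GAB1, an adaptor that binds regulatory subunits, had 0.87, 1.36 and 0.85, and PHLPP1 had -0.29, 2.02 and 1.70.

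The genes whose ratios ran most like those of PIK3R1 over the 12 replicates, among 8983 genes with a value in every replicate, were RCAN2 (Pearson's r 0.883, Spearman's rho 0.825), E2F1 (r 0.871, rho 0.762), HOOK1 (r 0.855, rho 0.839), HVCN1 (r 0.854, rho 0.671) and MC4R (r 0.851, rho 0.811). The points share arrays and dye orders, and the genes were ranked by r itself, so the values only describe these replicates. RCAN2, a regulator of calcineurin, averaged -0.65 in female IS21FE pools, 0.05 in male IS21FE pools, -0.17 in female IS21SE pools and 0.37 in male IS21SE pools. E2F1, a cell cycle transcription factor, averaged -0.51, 0.23, 0.03 and 0.39 in the same groups. The other 3 were also lowest in female IS21FE pools, with means from -0.99 for MC4R to -0.51 for HVCN1. PIK3R2 had an r of 0.563 (rho 0.545), at rank 313, and PIK3CB an r of -0.344 (rho -0.343), at rank 7004, beside a median r of -0.0704 over all genes compared.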

How the data were processed

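The deposited table holds, per the labels, 1 column for each of 24 two-colour arrays, and its values were taken as log2 ratios of the channels. How the authors normalized and filtered the ratios, the log base and the column direction are not stated in the labels or the table. The base was read from the range of -9.34 to 9.85, and 16.6% of values were blank. Per the labels' protocols, RNA was extracted on columns with DNase, and 200 ng was labelled with the Agilent low input two-colour kit and spike-ins.

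Symbols came from the platform annotation and were updated with RefSeq and gene name tables (110 probes by accession, 234 by synonym), which gave 11906 genes and no further probe of a member. Arrays with control RNA in Cy5 were multiplied by -1, the 2 arrays of a replicate were averaged (a value on 1 array was enough), and probes of a gene were averaged. Group means of the 12 replicates were fitted with limma 3.58.1 in R 4.3.3 to all genes with at least 2 measured replicates in the groups concerned, with Benjamini-Hochberg adjustment and a threshold of 0.05. The fit was tested on simulated data. All p-values are two-sided, and intervals cover 95%.

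The members, lists and tests were chosen with earlier results of these data known. Named genes were all measured members, up to 4 pathway genes per group with the smallest unadjusted p under 0.05, and the 5 named genes with the highest Pearson's r with PIK3R1. Alternatives changed the turn, the dye order used, array scaling, probe choice, missing arrays, the fit and the replicates. The labels do not say whether equal replicate numbers in females and males mark a shared sow, and marker lists for endothelium, epithelium, erythroid and neural cells are given in the closing section.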

Additional observations from a re-analysis of the deposited data

Results flagged for a closer look

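In 3 cases every female replicate had a ratio of 1 sign and every male replicate the other. Compared were 6 members under IS21FE and 5 under IS21SE, with 3 replicates in each sex. The share of all genes with such opposite signs was not counted. A looser condition, all female replicates below all male ones, held for 4.84% of all genes under IS21FE and 6.42% under IS21SE. PIK3R1 had a female minus male difference of -1.03 under IS21FE, with all 3 female replicates negative and all 3 male replicates positive. It is given without a test, because the gene was chosen on its female IS21FE value. Under IS21SE the difference of PIK3R1 was -0.37, and that of PIK3R2 was -1.10, each with 3 negative female and 3 positive male replicates. Both were tested with limma and did not pass adjustment over all genes (adjusted p = 0.66 and 0.56). Female arrays had a smaller SD over all probes than male arrays. The arrays were centred and scaled to a common median absolute deviation, and whether this evened out the SDs was not checked. With every array scaled in this way both differences under IS21SE kept their values, -0.37 for PIK3R1 and -1.10 for PIK3R2. The scaling changed the limma fit little: in female IS21FE pools 831 genes had an unadjusted p under 0.05, against 834 without it. The kept values therefore say little about the unequal SDs. Without the turn of the arrays with control RNA in Cy5 the IS21SE differences were -0.03 for PIK3R1 and 0.23 for PIK3R2. The PIK3R1 difference under IS21FE was then -0.44. That value includes female IS21FE replicate 1, whose only array, with treated RNA in Cy5, is left as it is by the turn.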

How the results depend on the processing

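The main limit is the direction of the columns. Without the turn of arrays with control RNA in Cy5, limma called 309 genes in female IS21FE pools, 7 in male IS21FE pools and 119 in female IS21SE pools, against 0, 3 and 0 with it. PIK3R2 then had 0.21 in female IS21FE pools, 0.49 in female IS21SE pools and 0.23 for the female minus male difference under IS21SE, all of the opposite sign, and the regulatory minus catalytic difference was 0.23 in female IS21FE and 0.22 in female IS21SE pools. The cause was not tested. PIK3R1 had -0.38 in female IS21FE and -0.02 in female IS21SE pools without the turn. The -0.38 includes replicate 1, whose only array, with treated RNA in Cy5, read -0.87 and is left as it is by the turn. Of 549 alternative values of the members 47 had the opposite sign, 14 of them without the turn: 0 of 100 for PIK3R1, 5 of 100 for PIK3R2 (all without the turn), 15 of 100 for PIK3CB, 10 of 89 for PIK3CD, 14 of 100 for PIK3CG and 3 of 60 for AKT2. The alternatives reuse the same arrays, and those of PIK3R1 include the female IS21FE values on which it was chosen. Its count is therefore no test of its sign, and a kept sign can hide a value near 0, as in female IS21SE pools without the turn.

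The count of called genes in male IS21FE pools (3) was 10 on arrays with treated RNA in Cy5 alone, 1 on arrays with control RNA in Cy5 alone, 1 each with scaled arrays, the most measured probe, array weights, robust eBayes or 3 replicates required, 0 each with both arrays required, without 3 arrays that resembled each other, with the replicate block, with the group fitted alone or with single arrays, and 2 to 25 with a replicate left out (25 without replicate 1 and 7 without replicate 3). In male IS21SE pools (0) it was 5 on arrays with treated RNA in Cy5 alone, 1 with the replicate block, 4 with single arrays, and 0 to 3 with a replicate left out (3 without replicate 1). Female IS21FE pools (0) had 1 with array weights and 1 with single arrays, and with a replicate left out it was 0 to 0, as in female IS21SE pools. The gene in both counts of 1 was PIK3R1, on whose values in that group the family was chosen, so these counts are no test of it.

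The regulatory minus catalytic difference was -1.62 in female IS21FE pools on arrays with control RNA in Cy5 alone. In female IS21SE pools it was -0.24 on arrays with treated RNA in Cy5 alone, -0.77 on the others, -0.47 with both arrays required and -0.81 without PIK3R1. In male IS21SE pools it was 0.50 on arrays with treated RNA in Cy5 alone. With a replicate left out it ran from -1.25 to -0.70 in female IS21FE pools, -0.90 to 0.07 in male IS21FE pools, where replicate 2 set it, -0.70 to -0.57 in female IS21SE pools and 0.14 to 0.33 in male IS21SE pools. Leaving out PIK3CD, or 1 array of TBC1D4 or PHLPP1, was chosen after seeing the data. Replicate numbers were not taken to pair the samples, since the labels do not say so and not every pair correlated above 0.1. Correlations of deviations ran from -0.173 to 0.121 for the same number (mean 0.0163) and from -0.125 to 0.155 for other numbers (mean -0.00818), and 7 of 12 replicates, not all, had their best partner under their own number. The replicate block left the member ratios as they were (PIK3R2 -0.58 in female IS21SE pools).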

Other observations

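Endothelial markers (4 of 5 listed had a probe) had a median ratio of -0.332 in female IS21FE pools, -0.148 in male IS21FE pools, 0 in female IS21SE pools and 0.080 in male IS21SE pools, with ranges of -0.50 to 0.03, -0.62 to 0.02, -0.95 to 0.30 and -0.35 to 0.57. Epithelial markers (3 of 4) had 0.016, 0.042, 0.018 and 0.306 in the same groups, erythroid markers (4 of 8) had -0.172, -0.004, -0.144 and -0.216, and neural markers (2 of 4) had 0.024, 0.124, -0.031 and -0.077. The markers of these 3 lists lay between -0.38 and 0.50 in all 4 groups. None of these markers passed an adjusted p of 0.05 with limma. At an unadjusted p under 0.05 in a group tested there were TIE1, with -0.95 in female and 0.57 in male IS21SE pools, ALAS2, an erythroid enzyme, with 0.50 in male IS21SE pools, and KRT8, an epithelial keratin, with 0.35 in male IS21SE pools. These were named after their values were seen, and their part in the ratios of the members was not tested. At that threshold limma called 4.06% of all genes in female and 11.1% in male IS21SE pools. In male IS21SE pools 3 of 4 erythroid markers were negative, unlike ALAS2, and EPCAM, an epithelial marker, had -0.32, unlike KRT8.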
